A study of Mus musculus with 8 samples.

Results

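The genes described are 38 genes of the excitatory postsynaptic density, its scaffold, adhesion, kinase and phosphatase proteins, read from a count table of 40659 genes. They are a fixed list of symbols, chosen with earlier results of these data known, and all 38 were found in the table and passed the filter on low counts that left 17252 genes. PolyA-RNA was sequenced from the whole hippocampi of 8 male C57BL/6JRj wild-type mice. Each had received a recombinant adeno-associated virus in the dorsal and ventral hippocampus at postnatal week 7 to 8 and was dissected 4 weeks later, and the sample labels give the tissue an age of 12 to 13 weeks. The virus of the 4 hp708 mice carried a miR-708-5p overexpression hairpin, that of the 4 hpCTL mice a control hairpin. In both groups the hairpin sits in the 3'UTR of EGFP behind the human synapsin promoter, which is active in neurons, while the RNA comes from all cells of the tissue. Fewer cells of a type and less RNA per cell cannot be told apart in such samples.

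The postsynaptic density lies under the membrane of excitatory synapses, opposite the sites of glutamate release. Its MAGUK proteins hold glutamate receptors and adhesion proteins at the membrane, the GKAP/SAPAP proteins link them to the Shank and Homer layer below, and that layer is tied to the actin of the dendritic spine. Calcium entering through the receptors acts on CaMKII and calcineurin, a kinase and a phosphatase whose balance sets synaptic strength in the hippocampus. A microRNA pairs with its targets mainly through its seed, bases 2 to 8, and lowers the level or the translation of the mRNA.

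The guide strand of the hairpin and the mouse microRNA that shares its seed are shown because the seed is what a search of the 38 mRNAs can look for. Both sequences are from RefSeq (build GRCm38.p6), 5′ to 3′, with the seed in capitals.
mmu-miR-708-5p: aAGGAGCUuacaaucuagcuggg
mmu-miR-28a-5p: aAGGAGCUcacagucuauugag
A letter match to this seed, a 7mer-m8 (AGCTCCT), 7mer-A1 (GCTCCTA) or 8mer (AGCTCCTA), was present in 18 of the 38 genes, searching the longest 3'UTR that is annotated (47.4%, exact 95% binomial interval 31.0 to 64.2%, which covers counting error only). Over all 14808 tested genes with a 3'UTR the share was 26.5%. The 38 genes have long 3'UTRs, with a median of 3292 bases against 1865 bases. Among tested genes with a 3'UTR inside the quartiles of the 38, from 2267 to 4904 bases, 1865 of 4902 had a match (38%), and 11 of the 18 members in that range had a match. Matches per 1000 bases were equal to 3 digits, 0.154 in the members and in all tested genes. The 22 matches were 3 8mers, 11 7mer-m8 and 8 7mer-A1, and Iqsec2 held 3 of them, Camk2b and Synpo 2 each. The members with 1 match were Dlg1, Dlg2, Dlg4, Dlgap1, Shank3, Homer2, Camk2g, Camk2d, Ppp3cb, Nlgn3, Lrrtm2, Baiap2, Sipa1l1, Cnksr2 and Anks1b.

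The matches printed below are the 8mers of Camk2b and Camk2d and those in the genes with an unadjusted p below 0.05 in the comparison described further on. Each is given with 23 bases of GRCm39 ending opposite the first base of the microRNA, on the strand of the mRNA, with the match in capitals. A match is a run of letters and not evidence of binding.
Camk2b 8mer (chr11:5918927-5918949, minus strand): aagtctgcaaacgtgAGCTCCTA
Camk2d 8mer (chr3:126639051-126639073, plus strand): gtgaatttccttggcAGCTCCTA
Iqsec2 7mer-m8 (chrX:151007285-151007307, plus strand): gaaggctttccccagAGCTCCTc
Iqsec2 7mer-m8 (chrX:151007971-151007993, plus strand): ttttttacaagtctcAGCTCCTc
Iqsec2 7mer-m8 (chrX:151007995-151008017, plus strand): tcttgccctacattcAGCTCCTt
Sipa1l1 7mer-A1 (chr12:82497495-82497517, plus strand): ctattccaccttcctgGCTCCTA
Dlg2 7mer-A1 (chr7:92097056-92097078, plus strand): atcatcagtacatcccGCTCCTA
Shank3 7mer-m8 (chr15:89442787-89442809, plus strand): gaccacttcctccatAGCTCCTg
Cnksr2 7mer-A1 (chrX:156599207-156599229, minus strand): attcagggagagtgttGCTCCTA
Dlg4 7mer-A1 (chr11:69927175-69927197, plus strand): gggtattatggtacatGCTCCTA

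Counts were scaled to the TMM-normalized library size (CPM), and levels between genes were compared per kilobase of exon (RPKM, mean over 8 libraries). They spanned a 235-fold range, from 1.51 RPKM for Camk2d to 355 RPKM for Camk2a. This range and the ranks depend on the gene models, since RPKM divides by all annotated exons of a gene. For Camk2d these came to 26696 bases, against 7359 bases for its longest transcript. In mean CPM of hpCTL, Camk2d (40.5) was above Lrrtm3 (19.8) and Lrrtm4 (31.0). Camk2a and Camk2b (92.5 RPKM) encode the CaMKII subunits that dominate in forebrain neurons, whereas Camk2g (17.9 RPKM) and Camk2d are expressed more widely. Of the calmodulin and calcineurin genes, Ppp3r1, the regulatory subunit of calcineurin, was at 303, neurogranin (Nrgn), which binds calmodulin, at 169.9 and the catalytic subunit Ppp3ca at 151 RPKM. Among the scaffolds Dlg4 stood at 56.5, Shank1 at 46.8 and Dlgap3 at 31.4 RPKM. Other scaffold genes were lower, such as Shank2 at 14.0, Magi2 at 8.65 and Lrrc7 at 4.42 RPKM. The adhesion genes ran from 3.73 RPKM for Lrrtm3, below these scaffold genes, to 25.6 RPKM for Lrrtm1. Dlgap2 (3.68 RPKM) was below the other GKAP/SAPAP genes, which lay between 25.6 and 31.4 RPKM. In no library did a member have fewer than 311 counts.

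**Figure D1:**
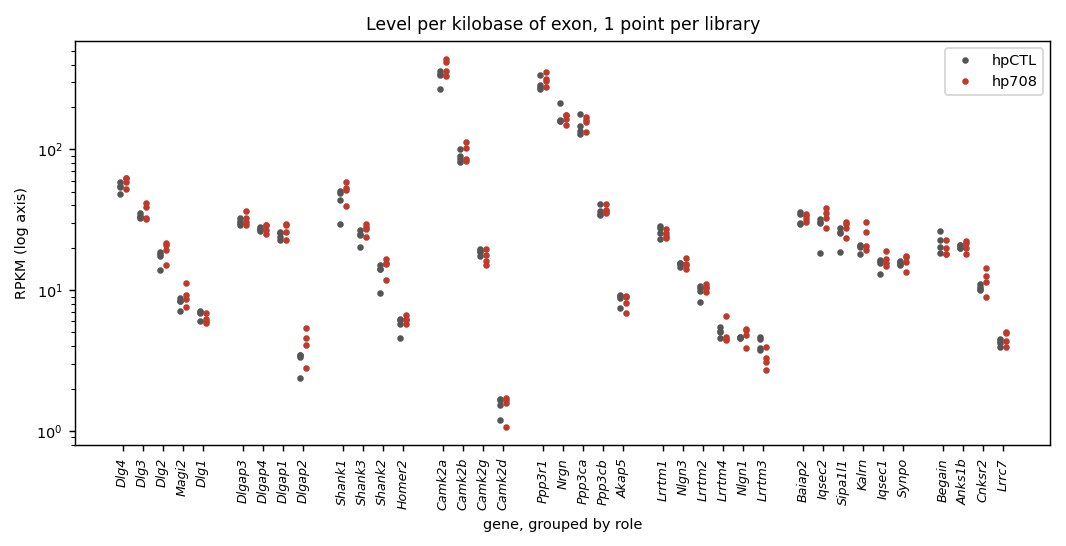
Level of each of the 38 genes per kilobase of exon (RPKM, log axis), grouped by role and ordered by mean level within a role, with 1 point per library, hpCTL in grey and hp708 in red. Camk2a (355 RPKM) and Ppp3r1 (303 RPKM) were highest and Camk2d (1.51 RPKM) lowest, and the groups overlapped in every gene.

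Some counts may be shared between neighbouring genes, because the strand and overlap settings of the counting are not given in the sources used here. Nlgn3 shares 41.1% of its exonic bases with Gm21986 on the same strand and Ppp3r1 shares 13.6% with Dnaaf10. On the opposite strand Lrrtm4 shares 25.1% with Gm4409, Nrgn 21.7% with Vsig2 and Camk2b 12.6% with Ykt6. Lrrc7 has a second identifier in the table, a non-coding locus downstream with 4336 counts in hpCTL replicate 2 where the coding locus had 1234. The coding locus is used here, and the log2 fold changes of the 2 loci were 0.10 and 0.067.

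Total counts ranged from 22606824 to 28462428 per library. In the study's source data for a qPCR of Nnat, the animal whose library is labelled hp708 replicate 1 is named as hpCTL, so counts, and values of some single genes, are also given without that library. The miR-708 precursor cannot be followed in polyA-RNA, and the group of each animal was taken from its label. Nnat, the imprinted gene of that qPCR, was at 352, 315, 259.9 and 282 CPM in hpCTL and 310.2, 209.6, 280 and 156 CPM in hp708. Its groups overlapped, with hp708 replicates 1 and 3 inside the hpCTL range. No library was a copy of another, since the chi-square per degree of freedom was at least 10.7 between libraries of a group. In log2 CPM, hp708 replicate 1 correlated most closely with hpCTL replicate 2 (r = 0.988), the highest value of all pairs. Its r was 0.979, 0.979 and 0.983 with hpCTL replicates 1, 3 and 4. With hp708 replicates 2 to 4 it was 0.976, 0.984 and 0.974. What this means for the label was not tested. Of 13 lists of marker genes, none of whose 8 genes each (7 matched for CA1) was at 0 in every library, the excitatory neuron list summed to 1988 to 2263 CPM in hpCTL and 1996 to 2668 CPM in hp708. Choroid plexus markers, from cells next to the hippocampus, summed to 60.0 to 2093 CPM and 116 to 4445 CPM.

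The comparison of hp708 with hpCTL asks whether the hairpin changed these mRNAs. The quasi-likelihood fit of edgeR included 3 surrogate variables, which are covariates estimated from the counts for variation of unknown source. Over the libraries they correlated with the members' median log2 CPM, taken relative to the mean of all libraries, at r = -0.026, 0.55 and 0.66. Their r with the group was -0.26, 0.15 and -0.098. In this fit 0 of the 38 genes passed a Benjamini-Hochberg FDR of 0.05 over all tested genes, where 1 gene did (0.0058%). With the same surrogate variables edgeR's likelihood ratio test called 1 member (Dlgap2) among 127 genes (0.736% of all tested), and DESeq2 called 2 (Dlgap2 and Iqsec2) among 96 (0.556%). The lowest FDR among the members was 0.329, for Dlgap2. An unadjusted p below 0.05 was reached by 12 members, 11 higher and 1 lower in hp708, against 7.7% of all tested genes (2.82% higher and 4.87% lower). The fitted log2 fold change was above 0 for 30 members and below 0 for 8, where 53.2% of all tested genes were below 0. Its median was 0.086 over the members and -0.0091 over all tested genes, with a range from -0.33 to 0.37. The CPM of the groups overlapped for all 38 members, whereas it did not overlap for 1.51% of all tested genes, 0.812% with hp708 lower.

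These counts depended on the count filter, the surrogate variables and single libraries. When each library had to hold 10 counts or more, still with 3 surrogate variables, 2 members had an unadjusted p below 0.05, 1 higher and 1 lower, where 5.72% of all tested genes did, and 10 members were below 0. Without surrogate variables 1 member (Lrrtm3) had an unadjusted p below 0.05, where 1.81% of all tested genes did, and 9 members were below 0 (52.9% of all tested genes) with a median of 0.098. With the library labelled hp708 replicate 1 left out and 3 surrogate variables, 17 members had an unadjusted p below 0.05, 11 higher and 6 lower, where 12.2% of all tested genes did. The lower genes were Dlg1, Camk2g, Camk2d, Akap5, Lrrtm3 and Begain. Of the 12 members with all libraries, 7 were among the 17 and all 12 kept their direction. In that fit 11 members were below 0 and the lowest FDR was 0.0627, for Ppp3ca, and without surrogate variables 3 members had an unadjusted p below 0.05 (3.42% of all tested genes). Over all alternatives the lowest FDR among the members lay between 0.0115 and 1.00. Leaving out hpCTL replicate 3 gave 3 members with an unadjusted p below 0.05 (2.98% of all tested genes), and leaving out hp708 replicate 2 gave 20 (12% of all tested genes), the extremes of the fits with 3 surrogate variables and 1 library left out. Leaving out hpCTL replicate 1 gave 13 (9.67% of all tested genes), of which 3 were lower, and without surrogate variables 2 (1.99% of all tested genes), both lower (Dlg1 and Lrrtm3). The median of the members stayed between 0.040 and 0.14 in the 16 fits without 1 library, 8 with and 8 without surrogate variables, but the value of 36 of the 38 genes moved by over 1.5 times in at least 1 of them.

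**Figure D2:**
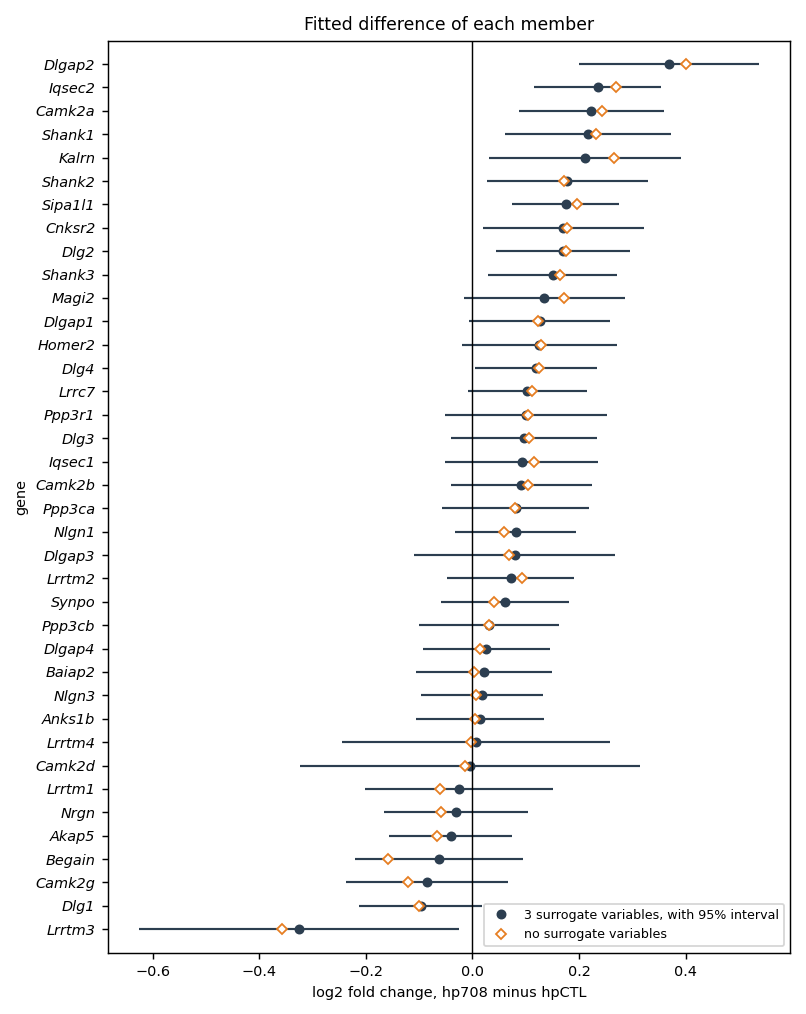
Log2 fold change (hp708 minus hpCTL) of each member, sorted, from edgeR with 3 surrogate variables (filled circles with 95% intervals) and without surrogate variables (open diamonds). The intervals of 12 members exclude 0 before adjustment for the number of genes tested, 11 of them to the right, and the values without surrogate variables lie close by.

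The values were uneven over the libraries of a group. hp708 replicate 3 or 4 was the highest library for 26 of the 38 genes, and both lay above every hpCTL library for 19. hp708 replicate 2 went the other way and was below hpCTL replicates 2 to 4 for 29 genes. hpCTL replicate 1 was the lowest library for 15 genes and the highest for 5 (Nrgn, Ppp3ca, Ppp3cb, Baiap2 and Begain). In log2 CPM relative to the mean of the 8 libraries, the median member stood at -0.13, 0.021, -0.023 and -0.024 in hpCTL replicates 1 to 4. The same median was 0.046, -0.13, 0.13 and 0.16 in hp708 replicates 1 to 4, so that the libraries within each group differed by more than the group means. The 38 genes together took 14730 to 15265 CPM in hpCTL and 15369, 14619, 17484 and 17954 CPM in hp708 replicates 1 to 4. The sums of hp708 replicates 1, 3 and 4 exceeded every hpCTL sum, and that of hp708 replicate 2 lay below them all.

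**Figure D3:**
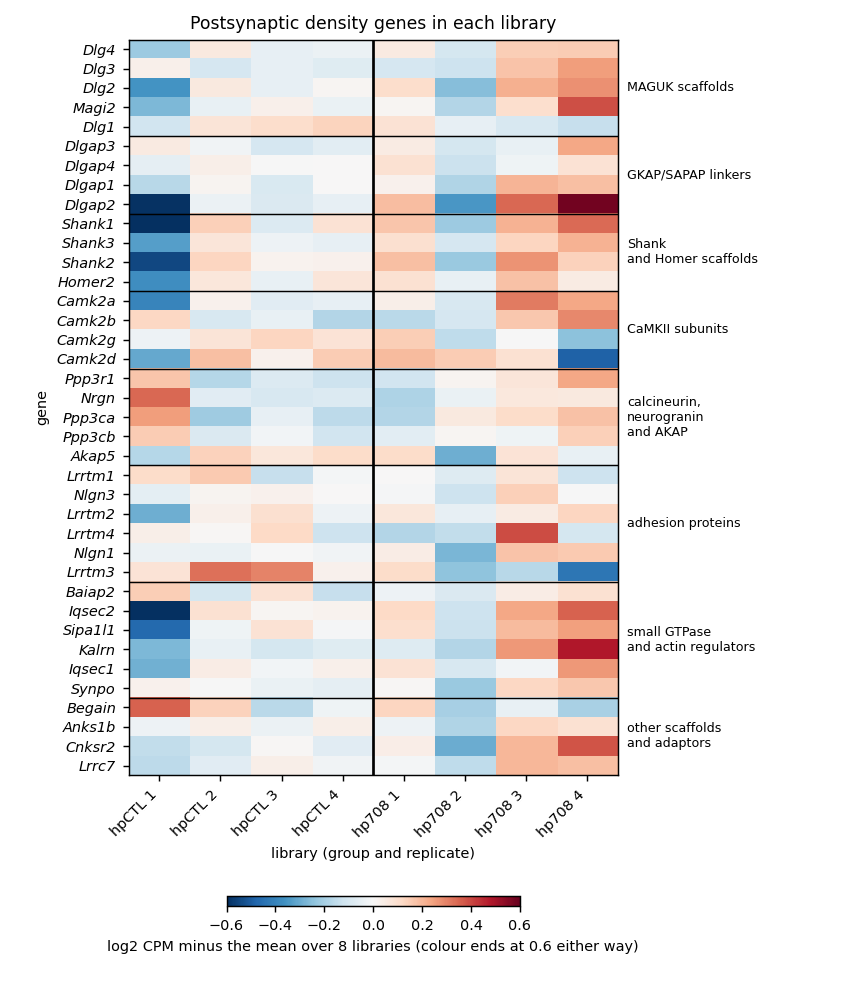
Log2 CPM of each member in each library minus its mean over the 8 libraries, in blue below and red above the mean, with genes grouped by role. hp708 replicates 3 and 4 are red for most genes, hp708 replicate 2 is mostly pale blue, and hpCTL replicate 1 is deep blue for Dlgap2, Shank1, Shank2 and Iqsec2 but red for Nrgn and Ppp3ca.

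In the paragraphs that follow, values per library are CPM in the order of replicates 1 to 4, log2 fold changes are hp708 minus hpCTL from the fit with 3 surrogate variables, and each FDR is edgeR's quasi-likelihood test with Benjamini-Hochberg adjustment. None of the differences passed an FDR of 0.05. In that fit 7.7% of all tested genes had an unadjusted p below 0.05, 2.82% higher and 4.87% lower in hp708. The role groups counted below were chosen with earlier results of these data known.

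Of the 5 MAGUK scaffold genes, 4 were above 0 and 2 had an unadjusted p below 0.05. Dlg4 (ENSMUSG00000020886, chr11:69907768-69938348, plus strand) encodes the most abundant MAGUK of the postsynaptic density. It stood at 641, 778, 721 and 728 CPM in hpCTL and 775, 694, 827 and 828 CPM in hp708. hp708 replicates 3 and 4 were above all hpCTL libraries and hp708 replicates 1 and 2 within their range. The log2 fold change of Dlg4 was 0.12 (SE 0.049, edgeR FDR 0.643). Dlg2 (ENSMUSG00000052572, chr7:90125880-92098455, plus strand), a close relative that also binds NMDA receptors, stood at 250.0, 334, 309.8 and 324 CPM in hpCTL and 346, 269, 372 and 388 CPM in hp708. All hp708 libraries but replicate 2 were above hpCTL, and hpCTL replicate 1 was the lowest of the 8. Its log2 fold change was 0.17 (SE 0.054, edgeR FDR 0.549). For Dlg3, Magi2 and Dlg1 the log2 fold changes were 0.10, 0.14 and -0.10. Dlg1, which is also found outside the postsynaptic density, was the only MAGUK gene below 0. Without the library labelled hp708 replicate 1 the log2 fold changes of Dlg4, Dlg2, Dlg3 and Dlg1 were 0.072, 0.082, 0.18 and -0.18 with 3 surrogate variables, and 0.13, 0.18, 0.16 and -0.14 without them. Over the 16 fits without 1 library (8 with and 8 without surrogate variables) the log2 fold change of Dlg4 ran from 0.072 to 0.18 and that of Dlg2 from 0.082 to 0.28, both lowest without that library. Magi2 ran from 0.059, without hp708 replicate 4, to 0.25, without hp708 replicate 2, and Dlg3 from 0.038, without hp708 replicate 4, to 0.18.

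All 4 GKAP/SAPAP linker genes were above 0, and 1 had an unadjusted p below 0.05. Dlgap2 (ENSMUSG00000047495, chr8:14145850-14903418, plus strand) is the member with the lowest p and the highest log2 fold change. Its values were 28.2, 41.5, 40.0 and 41.1 CPM in hpCTL and 48.2, 33.3, 54.0 and 63.5 CPM in hp708. In hp708 replicates 1, 3 and 4 the gene was above all hpCTL libraries, while hp708 replicate 2 was above hpCTL replicate 1 only, and hpCTL replicate 1 stood apart from the other 3. The means were 37.7 ± 6.37 CPM in hpCTL and 49.8 ± 12.7 CPM in hp708 (SD, n = 4 each). The log2 fold change was 0.37 (SE 0.072, edgeR FDR 0.329), with a 95% interval from 0.20 to 0.54. Over the 30 alternatives the log2 fold change of Dlgap2 ran from 0.26 to 0.55 and its FDR from 0.0115 to 1.00, and it passed 0.05 in edgeR's likelihood ratio test and in DESeq2 with surrogate variables. With the library labelled hp708 replicate 1 left out, the log2 fold change of Dlgap2 was 0.29 with 3 surrogate variables and 0.42 without them. Dlgap3 (ENSMUSG00000042388, chr4:127062750-127130847, plus strand), the linker gene highest in RPKM but below Dlgap1 in CPM, stood at 254, 241, 227 and 234 CPM in hpCTL and 252, 227, 237 and 286 CPM in hp708. Only hp708 replicate 4 was above the hpCTL range, and the log2 fold change was 0.080 (SE 0.080, edgeR FDR 0.863). Without that library and without surrogate variables it was 0.00043, and without hp708 replicate 3, with 3 surrogate variables, it was 0.16. Dlgap1 and Dlgap4 had log2 fold changes of 0.13 and 0.026, and in the fits without 1 library Dlgap1 ran from 0.059, without hpCTL replicate 3, to 0.20, without hp708 replicate 2.

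The Shank proteins form the deep layer of the density, and all 3 of their genes had an unadjusted p below 0.05, each higher in hp708. With all libraries and no surrogate variables none of the 3 genes did. Nor did any with 3 surrogate variables when hpCTL replicate 1, or the library labelled hp708 replicate 1, was left out. Shank1 (ENSMUSG00000038738, chr7:43959615-44009996, plus strand) stood at 311, 535, 459 and 515 CPM in hpCTL and 545, 417, 560.3 and 615 CPM in hp708. hp708 replicates 1, 3 and 4 were above every hpCTL library and hp708 replicate 2 was below hpCTL replicates 2 to 4. The log2 fold change of Shank1 was 0.22 (SE 0.066, edgeR FDR 0.533). Shank3 (ENSMUSG00000022623, chr15:89383826-89444464, plus strand) was at 188, 248, 231 and 228 CPM in hpCTL and 252, 220.5, 258 and 273 CPM in hp708. The order of the libraries was much the same, and the log2 fold change of Shank3 was 0.15 (SE 0.051, edgeR FDR 0.584). For Shank2 (ENSMUSG00000037541, chr7:143532669-143979779, plus strand) the libraries held 146, 234, 217 and 218 CPM in hpCTL and 242, 183, 257 and 235 CPM in hp708. Again hpCTL replicate 1 was lowest and hp708 replicate 2 next to it, and the log2 fold change was 0.18 (SE 0.064, edgeR FDR 0.594). With the library labelled hp708 replicate 1 left out, the log2 fold changes of Shank1, Shank3 and Shank2 were 0.091, 0.095 and 0.0030 with 3 surrogate variables, and 0.23, 0.17 and 0.15 without them. Leaving out hpCTL replicate 1, without surrogate variables, gave 0.090, 0.092 and 0.046, and leaving out hpCTL replicate 2, with 3, gave 0.35, 0.23 and 0.29. Homer2, whose protein binds Shank and group I metabotropic glutamate receptors, had a log2 fold change of 0.13 (SE 0.062, edgeR FDR 0.705), and without that library 0.033 with 3 surrogate variables and 0.13 without them.

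**Figure D4:**
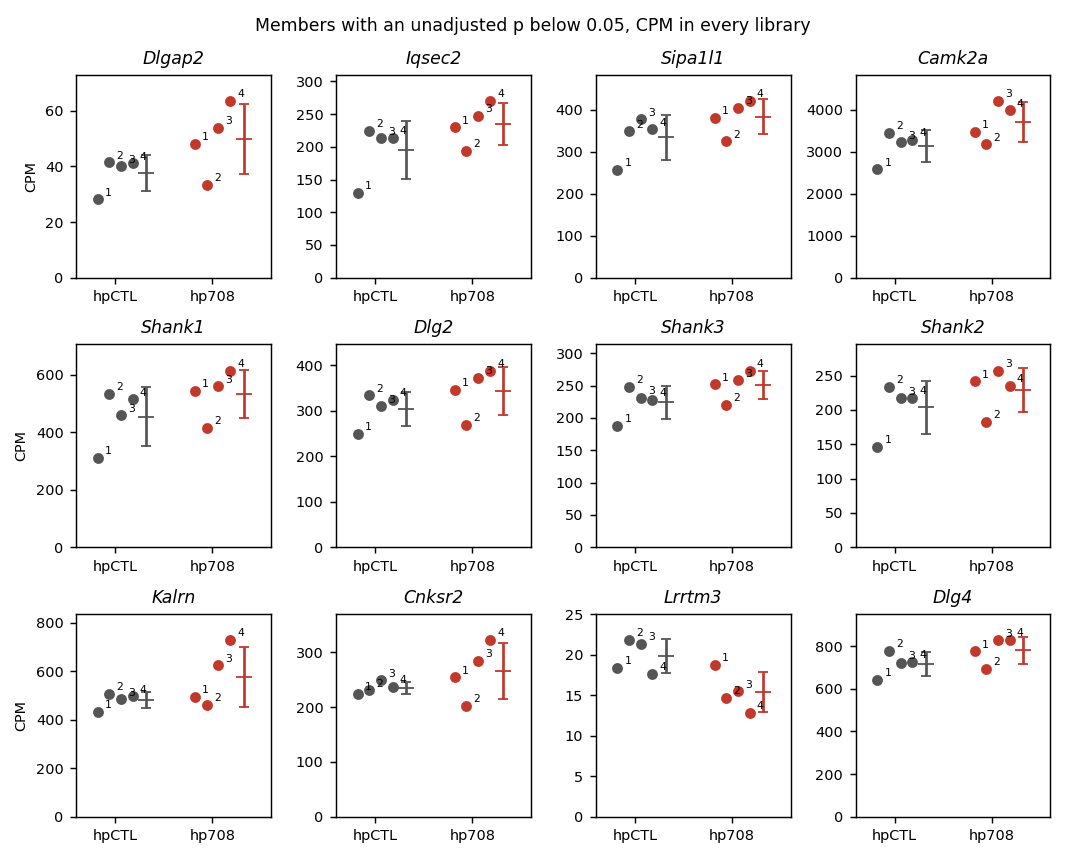
CPM in every library of the 12 members with an unadjusted p below 0.05, lowest p first, with the replicate number beside each point and the mean ± SD of the 4 libraries of a group to the right of the points. In 9 of the 11 higher genes hp708 replicates 1, 3 and 4 lie above all hpCTL libraries and hp708 replicate 2 does not, and in Lrrtm3 hp708 replicates 2 to 4 lie below all hpCTL libraries.

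The CaMKII genes were divided, 2 above and 2 below 0. Camk2a (ENSMUSG00000024617), the alpha subunit and the most abundant member, was at 2579, 3448, 3229 and 3281 CPM in hpCTL and 3472, 3177, 4212 and 3986 CPM in hp708. All hp708 libraries except replicate 2 exceeded hpCTL, and hpCTL replicate 1 was the lowest. Its means were 3135 ± 382 CPM in hpCTL and 3712 ± 472 CPM in hp708 (SD, n = 4 each), and its log2 fold change was 0.22 (SE 0.058, edgeR FDR 0.478). The log2 fold change of Camk2a stayed between 0.15 and 0.31 over the 30 alternatives. It was 0.18 with 3 surrogate variables and 0.28 without them when the library labelled hp708 replicate 1 was left out. Camk2b, the beta subunit, which binds actin, had 0.092 (SE 0.056, edgeR FDR 0.75). Camk2g and Camk2d had -0.086 and -0.0050. With 3 surrogate variables Camk2d was the least certain of all members, with a 95% interval from -0.32 to 0.31. Without them Dlgap2 had a larger SE (0.19) than Camk2d (0.16). Without the library labelled hp708 replicate 1 the log2 fold changes with 3 surrogate variables were 0.22 for Camk2b (edgeR FDR 0.125), -0.25 for Camk2g (FDR 0.167) and -0.24 for Camk2d (FDR 0.308), each with an unadjusted p below 0.05. Without surrogate variables those of the 3 genes were 0.17, -0.19 and -0.075. Other omissions brought values nearer 0. Camk2b was 0.046 with 3 surrogate variables and 0.021 without them when hp708 replicate 4 was left out. Camk2g was -0.029 without hpCTL replicate 3, with 3 surrogate variables.

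Calcineurin, neurogranin and the anchoring protein gene Akap5 had no member with an unadjusted p below 0.05 when all 8 libraries were used. Ppp3r1 (ENSMUSG00000033953, chr11:17109192-17150382, plus strand), the highest of them in RPKM but below Ppp3ca in CPM, stood at 1151, 912, 968 and 941 CPM in hpCTL and 947, 1036, 1079 and 1206 CPM in hp708. hp708 replicate 4 was highest, followed by hpCTL replicate 1, and the log2 fold change was 0.10 (SE 0.065, edgeR FDR 0.766). Ppp3ca and Ppp3cb, the catalytic subunits, had log2 fold changes of 0.081 and 0.031. Nrgn (ENSMUSG00000053310, chr9:37452275-37464689, minus strand) was at 1208, 907, 891 and 897 CPM in hpCTL and 837, 926, 994 and 991 CPM in hp708. hpCTL replicate 1 was far above the other hpCTL libraries here, where it was lowest for the Shank genes, and the log2 fold change of Nrgn was -0.031 (SE 0.058, edgeR FDR 0.931). Akap5, which holds calcineurin and protein kinase A at the membrane, had -0.040. Leaving out 1 library gave other values. With 3 surrogate variables and the library labelled hp708 replicate 1 left out, the log2 fold changes were 0.26 for Ppp3ca (edgeR FDR 0.0627), 0.24 for Ppp3r1 (FDR 0.0804) and -0.20 for Akap5 (FDR 0.284), each with an unadjusted p below 0.05. Without hpCTL replicate 1 they were 0.16 for Ppp3ca (edgeR FDR 0.341) and 0.18 for Ppp3r1 (FDR 0.282), both with an unadjusted p below 0.05. Other omissions lowered the values. Without hpCTL replicate 2, with 3 surrogate variables, Ppp3ca was 0.0049 and Ppp3r1 0.049. Without hp708 replicate 4 and without surrogate variables Ppp3r1 was 0.042. Without surrogate variables the values of Ppp3ca, Ppp3r1 and Akap5 were 0.15, 0.16 and -0.11 without the library labelled hp708 replicate 1, and 0.19, 0.19 and -0.13 without hpCTL replicate 1, none with an unadjusted p below 0.05. Nrgn turned to 0.088 without the library labelled hp708 replicate 1 and to 0.033 without hpCTL replicate 1, and Ppp3cb was 0.13 and 0.094, all with 3 surrogate variables.

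The adhesion genes encode neuroligins and leucine-rich repeat proteins that bind presynaptic neurexins, and with all 8 libraries they held the only member lower in hp708 with an unadjusted p below 0.05. Lrrtm3 (ENSMUSG00000042846, chr10:63763854-63926056, minus strand) stood at 18.4, 21.8, 21.4 and 17.7 CPM in hpCTL and 18.8, 14.7, 15.5 and 12.8 CPM in hp708. hp708 replicates 2 to 4 were below all hpCTL libraries, and the library labelled hp708 replicate 1 lay inside the hpCTL range. The means were 19.8 ± 2.08 CPM in hpCTL and 15.4 ± 2.48 CPM in hp708 (SD, n = 4 each). Its log2 fold change was -0.33 (SE 0.13, edgeR FDR 0.629), with a 95% interval from -0.63 to -0.025. Over the 30 alternatives the value of Lrrtm3 ran from -0.54 to -0.24, the lowest without the library labelled hp708 replicate 1, and its FDR from 0.0878 to 1.00. Lrrtm1 (ENSMUSG00000060780, chr6:77218820-77235200, plus strand), the adhesion gene highest in RPKM but below Nlgn3 in CPM, was at 112, 116, 94.4 and 103 CPM in hpCTL and 104, 98.5, 109.8 and 95.5 CPM in hp708. All hp708 libraries lay within the hpCTL range, and the log2 fold change was -0.025 (SE 0.075, edgeR FDR 0.957). For Lrrtm2 and Lrrtm4 the log2 fold changes were 0.072 and 0.0065. Nlgn1, the neuroligin of excitatory synapses, had 0.081 and Nlgn3 had 0.018.

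The 6 regulators of small GTPases and actin were all above 0, and 3 had an unadjusted p below 0.05. Iqsec2 (ENSMUSG00000041115, chrX:150927171-151008232, plus strand), an exchange factor for Arf GTPases that binds Dlg4, stood at 129.9, 225, 213 and 214 CPM in hpCTL and 229.6, 194, 248 and 269.9 CPM in hp708. hpCTL replicate 1 was far below the other 7 libraries, and hp708 replicates 1, 3 and 4 were the 3 highest. The log2 fold change of Iqsec2 was 0.23 (SE 0.051, edgeR FDR 0.382). It was 0.15 without hpCTL replicate 1 and also without the library labelled hp708 replicate 1, and 0.35 without hpCTL replicate 2, and over the 30 alternatives its FDR ran from 0.0360 to 1.00, with DESeq2 and surrogate variables at the low end. Sipa1l1 (ENSMUSG00000042700, chr12:82216094-82498560, plus strand), which inactivates Rap in spines, was at 257, 349, 378 and 354 CPM in hpCTL and 381, 325, 405 and 421 CPM in hp708. The pattern over libraries was that of Iqsec2, with a log2 fold change of 0.18 (SE 0.043, edgeR FDR 0.438). In the 16 fits without 1 library Sipa1l1 ran from 0.093, without hpCTL replicate 1, to 0.27, without hp708 replicate 2. It was 0.12 with 3 surrogate variables and 0.20 without them when the library labelled hp708 replicate 1 was left out. Kalrn (ENSMUSG00000061751, chr16:33789443-34393902, minus strand), an exchange factor for Rac that enlarges spines, was at 433, 506, 484 and 497 CPM in hpCTL and 494, 461, 625 and 729 CPM in hp708. Here only hp708 replicates 3 and 4 stood above hpCTL, and the log2 fold change was 0.21 (SE 0.077, edgeR FDR 0.594). It was 0.11 without hpCTL replicate 3 and 0.12 without hp708 replicate 4, both with 3 surrogate variables, and at most 0.36, without hp708 replicate 2 and without surrogate variables. With the library labelled hp708 replicate 1 left out, Kalrn was at 0.29 with 3 surrogate variables and 0.34 without them. Baiap2 (ENSMUSG00000025372, chr11:119833589-119897611, plus strand), which couples Rac and Cdc42 to actin and is the gene of this group highest in RPKM but not in CPM, was at 329.8, 277, 316 and 271 CPM in hpCTL and 291, 280.1, 307 and 318 CPM in hp708. hpCTL replicate 1 was the highest library, and the log2 fold change of Baiap2 was 0.021 (SE 0.054, edgeR FDR 0.948). Iqsec1 and Synpo had log2 fold changes of 0.092 and 0.061, and in the fits without 1 library Iqsec1 ran from 0.034, without hp708 replicate 4, to 0.17, without hp708 replicate 2.

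Among the 4 other scaffolds and adaptors, Cnksr2 (ENSMUSG00000025658, chrX:156598284-156827131, minus strand), a scaffold of Ras signalling, stood at 224, 230.5, 249 and 237 CPM in hpCTL and 255, 202, 285 and 322 CPM in hp708. hp708 libraries were both the highest 3 and the lowest of the 8, and the log2 fold change was 0.17 (SE 0.064, edgeR FDR 0.613). In the 16 fits without 1 library Cnksr2 ran from 0.075, without hp708 replicate 4, to 0.29, without hp708 replicate 2, both without surrogate variables. It was 0.17 with 3 surrogate variables and 0.20 without them when the library labelled hp708 replicate 1 was left out. Begain (ENSMUSG00000040867, chr12:108998104-109034294, minus strand), which binds the guanylate kinase domain of Dlg4, was at 136, 117, 95.3 and 105 CPM in hpCTL and 117, 92.8, 103 and 93.1 CPM in hp708. hpCTL replicate 1 was highest, and the log2 fold change was -0.063 (SE 0.067, edgeR FDR 0.867), and -0.16 without surrogate variables. Without the library labelled hp708 replicate 1 it was -0.19 with 3 surrogate variables and -0.23 without them. Leaving out hp708 replicate 4, with 3 surrogate variables, brought it to -0.015. Lrrc7 and Anks1b had log2 fold changes of 0.10 and 0.014.

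How precisely a difference could be measured followed from the spread between libraries. The median standard error of the log2 fold change was 0.058 over the members and 0.098 over all tested genes. The 95% intervals of 36 of the 38 members lay within 0.5 of 0 on the log2 scale, and no bound was farther than 0.63 from 0. Without surrogate variables the median standard error of the members was 0.10, the intervals of 31 members lay within 0.5 of 0, and the farthest bound was 0.83, for Dlgap2. The median within-group SD of log2 CPM was 0.16 for the members, against 0.13 for the 8950 tested genes with a mean level at or above that of the lowest member.

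The libraries also differed by transcript length, and the 38 genes are long. Their longest annotated transcripts had a median of 6936 bases against 3695 bases for all tested genes, and 34 of the 38 were above that median. Over 12882 tested genes with a mean log2 CPM above 2, the deviation of a gene from its mean over the 8 libraries correlated with log2 length at r = -0.33 in hpCTL replicate 1, -0.21 in hp708 replicate 2, 0.28 in hp708 replicate 3 and 0.21 in hp708 replicate 1. In the other 4 libraries r was between 0.036 and 0.064. These are correlations across genes of 1 library, which are not independent replicates. Among the 38 members the values were -0.63, -0.42, 0.49 and 0.30 in the same 4 libraries and 0.45 in hp708 replicate 4. The fitted log2 fold change correlated with log2 length at r = 0.29 over the tested genes and 0.53 over the members.

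**Figure D5:**
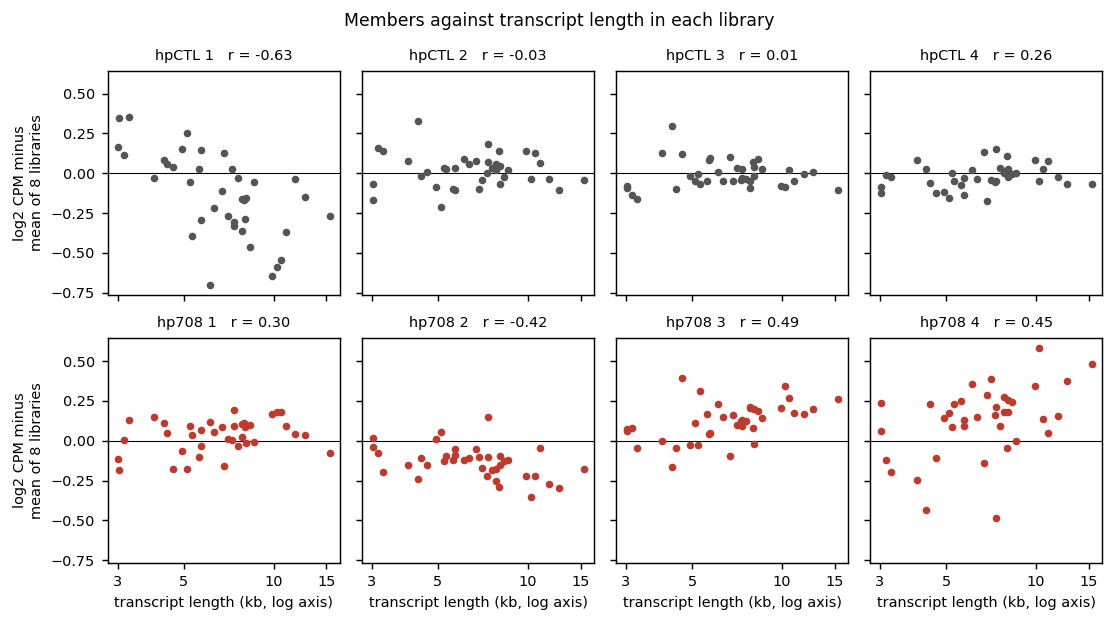
Log2 CPM of each member minus its mean over the 8 libraries, against transcript length (kilobases, log axis), with 1 panel per library, 1 point per gene and Pearson's r across the genes in the panel title. Points fall with length in hpCTL replicate 1 (r = -0.63) and hp708 replicate 2 (r = -0.42) and climb in hp708 replicates 3 and 4 (r = 0.49 and 0.45).

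The comparison was repeated with the length trend of each library taken out, an alternative added after seeing the data. With 3 surrogate variables 29 members were above 0 and 9 below, where 47.4% of all tested genes were below 0. An unadjusted p below 0.05 was reached by 11 members, 9 higher and 2 lower, against 7.21% of all tested genes (3.65% higher). The median of the members was 0.072 and their lowest FDR 0.373. Of the 12 genes named above, 8 were among the 11, and all 12 kept their direction. Without surrogate variables 26 were above 0 and 12 below, where 48.3% of all tested genes were below 0, and Dlgap2 and Lrrtm3 had an unadjusted p below 0.05, as did 1.94% of all tested genes. With hpCTL replicate 1 and hp708 replicate 2 left out together and no surrogate variables, 31 members were above 0, where 51.6% of all tested genes were below 0. There 13 members had an unadjusted p below 0.05, all higher, against 4.34% of all tested genes (2.3% higher). The lowest FDR in that fit was 0.941.

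Marker lists moved between libraries in several ways, and their part in the values of the 38 genes was not tested. The summed CPM of the groups overlapped for all 13 lists. The excitatory neuron list summed to 2263, 2136, 2032 and 1988 CPM in hpCTL and to 2083, 1996, 2364 and 2668 CPM in hp708, so hp708 replicates 3 and 4 were highest here as they were for the 38 genes, although of its 8 genes 5 were above and 3 below 0 without surrogate variables, and 3 had an unadjusted p below 0.05 with them. hpCTL replicate 1, in contrast, was the highest hpCTL library for these markers. The CA3 pyramidal neuron list summed to 1970, 1911, 1957 and 1848 CPM in hpCTL and to 2022, 1769, 2164 and 2134 CPM in hp708. There hp708 replicates 1, 3 and 4 lay above every hpCTL library and replicate 2 below them all, with 6 of 8 genes above 0 without surrogate variables and 3 of 8 with an unadjusted p below 0.05 with them. The subiculum list was at 194 to 287 CPM in hpCTL and 167 to 279 CPM in hp708, and the microglia list at 761 to 1042 and 616 to 1104 CPM. Without surrogate variables 8 of 8 microglia and 7 of 8 subiculum genes had a log2 fold change below 0, and with them 6 and 3 had an unadjusted p below 0.05. Oligodendrocyte markers were highest in hp708 replicate 2, at 8436 CPM, against 4484 to 6065 CPM in the other 7 libraries. All 8 interferon response genes had a log2 fold change below 0 without surrogate variables and an unadjusted p below 0.05 with them, and the list ranged from 179 to 467 CPM in hpCTL and 167 to 410 CPM in hp708.

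Members with and without a seed match were compared by medians and counts, and the difference was not tested. The median log2 fold change was 0.082 over the 18 genes with a match and 0.087 over the 20 without, and 3 of 18 and 5 of 20 were below 0. Over all tested genes the medians were 0.0014 with and -0.015 without a match. Iqsec2, with 3 matches printed above, was among the highest at 0.23. Of the genes with an 8mer, Camk2b, Camk2d and Synpo, the log2 fold changes were 0.092, -0.0050 and 0.061. Lrrtm3, the member with the lowest log2 fold change, had no match in its longest annotated 3'UTR of 1983 bases. Among the 12 members with an unadjusted p below 0.05, 6 had a match.

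A further list of 52 genes of the excitatory postsynapse and its regulators, none of them a member, was read from the same fit. All 52 were tested, 0 passed an FDR of 0.05 in edgeR or in DESeq2, 37 were above 0 and 15 below, and the median log2 fold change was 0.027. An unadjusted p below 0.05 was found for 7 of the 52, where 7.7% of all tested genes reached it, 6 higher and 1 lower. Without surrogate variables 2 of the 52 had an unadjusted p below 0.05, as did 1.81% of all tested genes, 21 were below 0 and the median was 0.013. Agap2, a GTPase-activating protein for Arf, was at 879.7, 1005, 864 and 911 CPM in hpCTL and 1016, 936, 1106 and 1126 CPM in hp708. Its log2 fold change was 0.19 (SE 0.065, edgeR FDR 0.573), with hp708 replicates 1, 3 and 4 above all hpCTL libraries. Among the other higher genes were Homer3, at 0.33 (SE 0.11, edgeR FDR 0.573), Prkca, at 0.19 (SE 0.069, edgeR FDR 0.594), and the actin-binding scaffold gene Ppp1r9a, at 0.10 (SE 0.041, edgeR FDR 0.641). The gene lower in hp708 was Camk2n2, an inhibitor of CaMKII, which stood at 58.9, 56.0, 41.8 and 49.3 CPM in hpCTL and 48.8, 36.7, 44.8 and 31.9 CPM in hp708. hp708 replicates 2 and 4 were the 2 lowest libraries, and the log2 fold change of Camk2n2 was -0.24 (SE 0.094, edgeR FDR 0.632). The CPM of the groups did not overlap for 1 gene of the list, where it did not for 1.51% of all tested genes. That gene, Prkar2b, a regulatory subunit of protein kinase A named after its values were seen, was at 33.7, 30.3, 30.3 and 30.4 CPM in hpCTL and 28.8, 29.2, 29.2 and 29.5 CPM in hp708. Its log2 fold change was -0.083 (SE 0.056, edgeR FDR 0.775).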

How the data were processed

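Whole hippocampi of 4 mice per group, hpCTL and hp708, gave the polyA-RNA libraries. The authors deposited raw counts per gene, 1 column per animal, made with STAR 2.7.8a, GENCODE M26 on GRCm39 and featureCounts 1.6.4, without normalization. Strand and multi-mapping settings are not given in the sources used here. Columns were matched to samples by animal number and samples were grouped by their labels. Of 40659 gene identifiers 39641 were named from GENCODE M39 on the same build. All rows of the deposited table name genes.

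From these counts, filterByExpr kept 17252 genes. The test was the quasi-likelihood test of edgeR 4.0.16 (R 4.3.3, fitted as in edgeR 3), after TMM normalization, with svaseq of sva 3.50.0 supplying 3 surrogate variables and Benjamini-Hochberg adjustment over all tested genes. CPM are after TMM, and RPKM divides them by the exonic length of the gene model in kilobases. Each standard error was derived from the test statistic and the fold change, and log2 CPM used a prior count of 2. Functions were tested on simulated counts. Seed matches were searched in the longest annotated 3'UTR per gene. DESeq2 1.42.0, other normalizations, filters and numbers of surrogate variables, a replicate block, and each library left out in turn were alternatives. Those that take out each library's loess trend of log2 CPM on transcript length, and the joint omission of hpCTL replicate 1 and hp708 replicate 2, were added after seeing the data.

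The 38 members, their 8 role groups, the list of 52 other postsynaptic genes and the marker lists were chosen with earlier results of these data known. Values in every library were given for the members with an unadjusted p below 0.05 (up to 12), for any member whose groups did not overlap, and for the most abundant member of each role group by RPKM. Of the other postsynaptic genes, at most 6 with an unadjusted p below 0.05 were named, lowest p first, except 1 that is not reported here. Nrgn was given by library in addition, after its values were seen. Pairs of libraries were compared on genes with 20 or more counts.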

Additional observations from a re-analysis of the deposited data

Results flagged for a closer look

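In 106 groups of 4 libraries, over the CPM of the 38 genes, the summed CPM of the 13 marker lists, the total counts and the summed CPM of the members, 4 groups held a library whose gap to the nearest other exceeded Dixon's 95% critical value for 4 libraries. Chance flags about 1 in 20 groups, 5.3 of 106. In 3 of the 4 the library was hpCTL replicate 1. It had 28.2 CPM of Dlgap2 where the other hpCTL libraries had 40.0 to 41.5, 129.9 CPM of Iqsec2 where they had 213 to 225, and 1208 CPM of Nrgn where they had 891 to 907. The direction was low for the first pair and high for Nrgn. The fourth was Lrrtm4, at 40.4 CPM in hp708 replicate 3 against 27.3 to 28.6 CPM in the other hp708 libraries. The total counts, the sums of the members and the marker lists had no such library.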

How the results depend on the processing

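The fitted direction held in every alternative for 26 of the 38 genes, 22 above and 4 below 0. The other 12 changed direction in at least 1 alternative. No alternative took an FDR below 0.05 from a member, since none had it. The likelihood ratio test called 1 member (Dlgap2) and 127 genes, DESeq2 with 3 surrogate variables 2 members (Dlgap2 and Iqsec2), 96 genes and 866 with an unadjusted p below 0.05. Genes called were 3 with edgeR 4's own quasi-likelihood test, 12 with no filter, 2 with DESeq2 without surrogate variables, and 0 with no or 1 surrogate variable, when each library had to hold 10 counts or more, with either length offset and with hpCTL replicate 1 and hp708 replicate 2 both left out. Genes with an unadjusted p below 0.05 were 312 without surrogate variables, 593 with 1, 317 in DESeq2 without them, 335 with length offsets and no surrogate variables and 752 with both libraries left out. Members were 1, 1, 3 and 2 in the first 4 of these and 2 with at least 10 counts in every library. Leaving out 1 library, with or without surrogate variables, gave 0 to 56 genes called (56 without the library labelled hp708 replicate 1), 240 to 2119 genes and 0 to 20 members with an unadjusted p below 0.05. The causes of these shifts were not tested.

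Replicate numbers share nothing but the number: deviations of same-numbered libraries correlated at -0.041 to 0.018. With the replicate number as a block in place of the surrogate variables, 272 genes and 1 member had an unadjusted p below 0.05, and Lrrtm4 was at -0.019.

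The log2 fold changes of 12 genes changed direction. Lrrtm4 was -0.0025 without surrogate variables, -0.00047 with total counts and -0.098 with at least 10 counts. Under that filter Nrgn was 0.032, Nlgn3 -0.033 and Anks1b -0.017. Camk2d was 0.0028 in DESeq2 with 3 surrogate variables and 0.0024 with its size factors in edgeR, and Akap5 was 0.0037 with no filter. With length offsets and 3 surrogate variables Nlgn3 was -0.035, Lrrtm1 0.0022 and Anks1b -0.019. With offsets and no surrogate variables Nlgn1 was -0.024, Nlgn3 -0.043, Baiap2 -0.015 and Anks1b -0.036. With both libraries left out Nrgn was 0.067. Leaving out 1 library, the ranges were -0.020 to 0.066 for Dlgap4, -0.24 to 0.12 for Camk2d, -0.010 to 0.13 for Ppp3cb, -0.10 to 0.088 for Nrgn, -0.20 to 0.018 for Akap5, -0.037 to 0.048 for Nlgn3, -0.11 to 0.024 for Lrrtm1, -0.15 to 0.057 for Lrrtm4, -0.041 to 0.069 for Baiap2, -0.0050 to 0.11 for Synpo and -0.035 to 0.062 for Anks1b. A match to the seed was found in 55.3% of the members and 30.8% of all tested genes when all annotated 3'UTRs were searched.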
